A study of Mus musculus with 8 samples.

Results

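The genes described here are insulin-like growth factor 1 (*Igf1*), its receptor (*Igf1r*) and 6 IGF binding proteins (*Igfbp2*, *Igfbp3*, *Igfbp4*, *Igfbp5*, *Igfbp6* and *Igfbp7*). They were chosen by symbol in the NCBIM37 (mm9) annotation, and each of the 8 matched 1 Ensembl gene among the 36536 genes with a count. RNA-seq had been performed on cells sorted from freshly dissected cochleas of mice with an *Lfng-GFP* BAC transgene (B6;FVB-Tg(Lfng-EGFP)HM340Gsat/Mmucd), which all groups carried. The 4 groups were the cells with the brightest GFP and those without GFP at postnatal day 1 (P1), and the same 2 fractions (GFP+ and GFP-) at postnatal day 6 (P6), all untreated, with 2 libraries in each group. In this line the *Lfng* regulatory sequences drive GFP in Deiters' cells, outer pillar cells, and the inner phalangeal and border cells, whereas inner pillar cells are not labelled. GFP- cells are the cells of the dissected tissue without GFP, while cells of weaker GFP were not kept for sequencing, and the dissection differed with age, since Reissner's membrane, the stria vascularis and the lateral wall were taken off at P1 but only in part at P6. The sources used here do not say which animals made up each library, so all p-values measure the spread between these libraries, which may be technical.

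IGF1 is a secreted growth factor, made in many tissues partly under the control of growth hormone, that binds the receptor tyrosine kinase IGF1R and so activates the PI3K-AKT and MAPK pathways. Most IGF in the body is held by binding proteins, which limit access to the receptor, carry IGF to the cell surface or matrix, and release it when proteases cut them. IGF1 is known as a survival factor for cochlear cells, and loss of its gene causes hearing loss in mice and humans. *Igfbp7* encodes a related secreted protein with low affinity for IGF that is best known from blood vessels.

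The binding protein genes lie at 5 places in the mouse genome. *Igfbp2* (ENSMUSG00000039323, chr1:72871077-72899048, plus strand) and *Igfbp5* (ENSMUSG00000026185, chr1:72904506-72921458, minus strand) face each other tail to tail with a gap of 5457 bases and 0 protein-coding genes between them. *Igfbp3* (ENSMUSG00000020427, chr11:7106089-7113926, minus strand) lies in the same way beside *Igfbp1*, and *Igfbp4* (ENSMUSG00000017493, chr11:98902558-98913969, plus strand) is far away on the same chromosome. *Igfbp6* (ENSMUSG00000023046) is at chr15:101974793-101979942 on the plus strand and *Igfbp7* (ENSMUSG00000036256) at chr5:77778265-77837070 on the minus strand. *Igf1* (ENSMUSG00000020053) spans chr10:87321010-87399792 and *Igf1r* (ENSMUSG00000005533) spans chr7:75097713-75371484, both on the plus strand. Of the 8 genes, *Igfbp7* alone shares exonic bases with other genes, 170 bases with *Polr2b* and AC141469.5, and the strand setting of the counting is not given in the sources used here, so reads from that stretch may be assigned to either gene or to none.

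The sequences below belong to 4 binding protein genes. At P1, *Igfbp3* and *Igfbp5* were called higher in GFP+ cells and *Igfbp2* and *Igfbp4* higher in GFP- cells. *Igf1* and *Igfbp7* were also called higher in GFP- cells at P1, but their sequences are not printed. At P6 only *Igfbp3* and *Igfbp4* were called, in the same directions. The proximal promoters of the 4 genes are the 250 bases before the RefSeq start (table built on GRCm38.p6). They are shown so that the sequence upstream of members that differed in opposite directions at P1 can be compared. *Igfbp2* has 2 RefSeq starts, and the window nearer the annotated gene start is shown. Each window was matched without a mismatch to the gene's chromosome in NCBIM37, at chr11:7113927-7114176 (minus strand) for *Igfbp3*, chr1:72921440-72921689 (minus strand) for *Igfbp5*, chr1:72870804-72871053 (plus strand) for *Igfbp2* and chr11:98902308-98902557 (plus strand) for *Igfbp4*. Capitals mark matches on either strand to TATAAA, to the motif GGGCGG or to the motif CCAAT, which do not overlap one another in these windows, and the sequences run 5' to 3' on the gene's strand.
Igfbp3: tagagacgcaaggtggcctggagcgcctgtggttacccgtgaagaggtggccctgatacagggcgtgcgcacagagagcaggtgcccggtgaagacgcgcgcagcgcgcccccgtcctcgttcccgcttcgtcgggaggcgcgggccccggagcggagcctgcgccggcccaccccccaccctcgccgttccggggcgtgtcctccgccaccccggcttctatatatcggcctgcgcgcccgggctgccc
Igfbp5: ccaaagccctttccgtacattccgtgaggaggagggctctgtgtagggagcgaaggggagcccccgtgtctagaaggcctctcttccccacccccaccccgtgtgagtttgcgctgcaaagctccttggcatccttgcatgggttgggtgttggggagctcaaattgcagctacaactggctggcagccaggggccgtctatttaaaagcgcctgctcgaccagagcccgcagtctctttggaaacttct
Igfbp2: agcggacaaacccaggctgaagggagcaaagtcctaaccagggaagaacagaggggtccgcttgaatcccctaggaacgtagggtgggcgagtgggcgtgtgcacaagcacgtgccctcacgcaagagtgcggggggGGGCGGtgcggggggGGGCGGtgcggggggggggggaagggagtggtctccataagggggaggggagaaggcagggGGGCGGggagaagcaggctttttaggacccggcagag
Igfbp4: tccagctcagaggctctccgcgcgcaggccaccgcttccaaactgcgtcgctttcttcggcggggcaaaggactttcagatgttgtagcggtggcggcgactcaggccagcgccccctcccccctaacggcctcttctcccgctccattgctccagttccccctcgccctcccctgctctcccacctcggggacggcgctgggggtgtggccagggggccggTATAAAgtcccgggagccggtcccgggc

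The *Igfbp4* window held 1 match to TATAAA, a motif found in 12.4% of 32851 RefSeq windows of the same length. *Igfbp2* held 3 matches to GGGCGG, which 32.7% of all windows contain. None of the 3 motifs was found in the *Igfbp3* and *Igfbp5* windows, which says only that these letters are not there. CCAAT, present in 33.8% of all windows, was in none of the 4. GC content was 73.2% for *Igfbp3*, 58.8% for *Igfbp5*, 67.2% for *Igfbp2* and 69.2% for *Igfbp4*, against a median of 52.4% for all windows. The number of CpG dinucleotides was 32, 10, 14 and 22 in the same order, against a median of 6. The 4 windows were thus richer in GC and CpG than the median window, whichever fraction the gene was higher in at P1. The 2 genes higher in P1 GFP+ cells had both the highest and the lowest CpG count of the 4. Of the members whose sequences are not printed but that were called at P1, *Igfbp7* had 74% GC and 26 CpG. The *Igf1* window was near the median, with 52.8% GC and 5 CpG.

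Levels are given as CPM, the count of a gene per 1000000 counts on genes in its library, and the libraries held from 17769024 to 67695039 such counts. All 6 supporting cell markers examined (*Lfng*, *Sox2*, *Prox1*, *Fgfr3*, *Hes5* and *Lgr5*) were higher in both GFP+ libraries than in both GFP- libraries at each age, and their summed level was 4209 to 6758 CPM in GFP+ and 100.2 to 159.7 CPM in GFP- cells. Hair cell markers were also higher in GFP+ cells, for 6 of 6 genes at P1 and 5 of 6 at P6. The P6 GFP+ replicates stood apart from each other, and replicate 1 held the fewest gene counts of the 8 libraries, 17769024. In P6 GFP+ replicate 2, all 10 of the marker lists for other cell types had a higher sum than in replicate 1, by 1.21 to 3.83 times. Not every gene of these lists was higher, since *Pou4f3*, *Gfi1*, *Lum*, *Comp*, *Sox10* and *Tubb3* were lower in replicate 2. The supporting cell markers summed to 4209 CPM in replicate 2 against 6014 CPM in replicate 1. In the other 3 groups, 4, 3 and 5 of the 10 lists were higher in replicate 2. The members' values that include P6 GFP+ cells are therefore also given without P6 GFP+ replicate 2 where its absence moved them by more than 1.5 times or changed the call. In such sorted bulk samples, fewer cells of a type and less RNA per cell cannot be told apart.

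At P1, most of these genes differed between GFP+ and GFP- cells. *Igfbp3* and *Igfbp5* were higher in GFP+ cells, and *Igf1*, *Igfbp2*, *Igfbp4* and *Igfbp7* were lower. In edgeR's quasi-likelihood test, fitted to all genes, 6 of the 8 members passed an adjusted p of 0.01, against 37.3% of the 18682 genes tested (16.6% higher and 20.7% lower in GFP+ cells). With the study's further criterion of a fitted change above 4-fold, the same 6 remained, against 17.8% of all genes, of which 6.46% were higher and 11.4% lower. *Igfbp5* (4.13-fold) and *Igfbp7* (4.04-fold) were barely past that criterion, and with library totals in place of TMM the log2 fold change of *Igfbp5* was 1.94, below it. For *Igfbp7* it was -1.79 without P1 GFP+ replicate 2. Over all genes, 3675 to 9798 genes were called at P1 when a library was left out, against 6972 with all 4. The median log2 fold change of the 8 members was -1.85, against 0.01 for all genes.

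At P6, 2 of the 8 members passed, *Igfbp3* as higher and *Igfbp4* as lower in GFP+ cells, both by more than 4-fold. Of all 18294 genes tested at P6, 12.9% passed (7.72% higher and 5.19% lower), and 7.98% passed with the fold criterion (4.88% higher and 3.1% lower). The members' share of calls, 25%, rests on only these 2 genes. The median log2 fold change of the members was -0.75 against -0.02 for all genes. Replicates varied more at P6, where edgeR's common dispersion was 0.0477 against 0.0225 at P1. The number of members called at P6 was 6 without P6 GFP+ replicate 2, 5 without replicate 1, 1 without P6 GFP- replicate 1 and 0 without P6 GFP- replicate 2, with the library left alone assumed to vary like those of the other group. The background moved with the same libraries, to 7767, 5654, 366 and 0 calls over all genes in that order, against 2363.

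**Figure D1:**
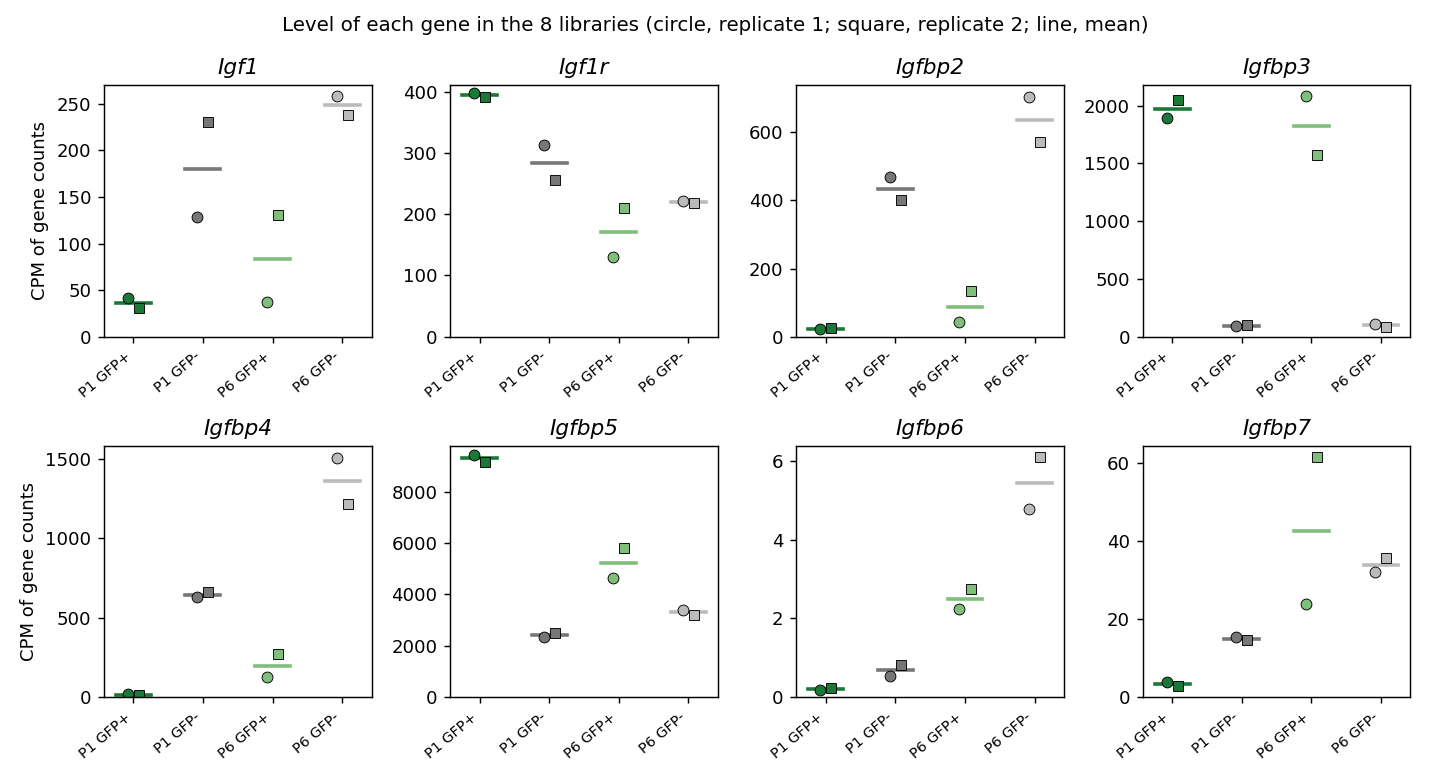
Level of each of the 8 genes in every library, in CPM on a linear axis from 0 that differs between genes; circles are replicate 1, squares replicate 2 and lines the mean of the 2 libraries of a group. *Igfbp3* lay between 1574 and 2081 CPM in all 4 GFP+ libraries and between 86.2 and 113 CPM in all 4 GFP- libraries, while the P6 GFP+ replicates of *Igf1*, *Igfbp2*, *Igfbp4* and *Igfbp7* lay far apart.

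*Igf1*, the ligand, was higher in GFP- cells. Its level was 41.1 and 30.9 CPM in the P1 GFP+ libraries, 129 and 231 CPM in P1 GFP-, 36.8 and 131 CPM in P6 GFP+, and 259 and 238 CPM in P6 GFP- cells. The P6 GFP- libraries were above all others, whereas P6 GFP+ replicate 2 lay within the range of the P1 GFP- libraries and replicate 1 within that of the P1 GFP+ libraries. At P1 the log2 fold change of GFP+ against GFP- cells was -2.21 ± 0.30 (SE, adjusted p = 0.00159), a 4.62-fold lower level, and without P1 GFP+ replicate 2 it was -1.99 with an adjusted p of 0.0117, past the threshold no longer. At P6 it was -1.58 ± 0.55 (adjusted p = 0.0746) and did not pass, and it became -2.73 without P6 GFP+ replicate 2 (adjusted p = 9.44e-09) and -0.90 without replicate 1 (adjusted p = 0.000563). Neither change with age passed, with log2 fold changes from P1 to P6 of 1.29 ± 0.57 in GFP+ cells (adjusted p = 0.160) and 0.66 ± 0.25 in GFP- cells (adjusted p = 0.112). The former was 0.14 without P6 GFP+ replicate 2 (adjusted p = 0.391) and 1.91 without replicate 1 (adjusted p = 8.09e-11), and the latter was 1.12 without P1 GFP- replicate 2 (adjusted p = 5.26e-05). Per kb of exon, *Igf1* reached 25.03 CPM per kb in P6 GFP- and 3.63 CPM per kb in P1 GFP+ cells.

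Mesenchyme and fibrocyte markers, 7 genes that include *Pou3f4* and *Col1a1*, had their summed level on the same side as *Igf1*. It was 444 to 498 CPM in P1 GFP+ and 13715 to 15666 CPM in P1 GFP- cells, with all 7 genes lower in GFP+ cells. At P6 it was 1759 CPM in GFP+ replicate 1, 3515 CPM in GFP+ replicate 2 and 18130 to 18905 CPM in GFP- cells, with 6 of the 7 genes lower in GFP+ cells. None of the 7 was at 0 in any library, and their part in the difference in *Igf1* was not tested. Macrophages are a further known source of IGF1. Their 5 markers summed to 16.8 to 19.3 CPM in P1 GFP+, 158 to 201 CPM in P1 GFP-, 44.7 and 80.6 CPM in P6 GFP+, and 381 to 422 CPM in P6 GFP- cells, so they too were lower in GFP+ cells at each age, and their part was not tested.

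*Igf1r*, the signalling receptor for IGF1, varied least among the members, by 2.31-fold between its highest and lowest group mean. It was at 397 and 391 CPM in P1 GFP+, 312 and 255 CPM in P1 GFP-, 222 and 218 CPM in P6 GFP-, and 130 and 210 CPM in P6 GFP+ cells. In that order no group overlapped the next. P1 GFP+ cells had the highest level of all groups and P6 GFP+ cells the lowest. The higher level in GFP+ cells at P1 did not pass the threshold (log2 fold change 0.58 ± 0.13, adjusted p = 0.0107), although it did with DESeq2's test (adjusted p = 0.000266). At P6 the log2 fold change was -0.38 ± 0.25 (adjusted p = 0.291), and -0.73 without P6 GFP+ replicate 2 (adjusted p = 0.00172). From P1 to P6 it was -1.12 ± 0.23 in GFP+ cells (adjusted p = 0.0304) and -0.18 ± 0.13 in GFP- cells (adjusted p = 0.396), and neither passed. In GFP+ cells it passed without P6 GFP+ replicate 2 (-1.47) and without replicate 1 (-0.84).

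*Igfbp3*, the main carrier of IGF in blood and also a secreted protein of many tissues, was the most strongly GFP+ member at each age. Its level was 1898 and 2049 CPM in P1 GFP+, 88.7 and 104 CPM in P1 GFP-, 2081 and 1574 CPM in P6 GFP+, and 113 and 86.2 CPM in P6 GFP- cells. Every GFP+ library was far above every GFP- library, and the ages overlapped within each fraction. The log2 fold change of GFP+ against GFP- cells was 4.46 ± 0.14 at P1 (adjusted p = 1.16e-05) and 4.19 ± 0.31 at P6 (adjusted p = 0.00112), or 22.0-fold and 18.3-fold. Leaving out P6 GFP- replicate 2 gave 3.99 at P6 with an adjusted p of 0.0189. With age it did not pass in either fraction, at -0.01 ± 0.22 in GFP+ (adjusted p = 0.970, and 0.20 without P6 GFP+ replicate 2) and 0.25 ± 0.17 in GFP- cells (adjusted p = 0.334).

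*Igfbp5*, a binding protein that also attaches to extracellular matrix, had the highest level of all 8 members in every library on the CPM scale. It was at 9427 and 9142 CPM in P1 GFP+, 2350 and 2483 CPM in P1 GFP-, 4635 and 5806 CPM in P6 GFP+, and 3404 and 3208 CPM in P6 GFP- cells. The 4 groups did not overlap, and the gap between GFP+ and GFP- cells was wider at P1. The log2 fold change was 2.05 ± 0.16 at P1 (adjusted p = 0.000165) and 0.65 ± 0.29 at P6 (adjusted p = 0.145), so that only the P1 difference passed. From P1 to P6 the log2 fold change was -0.74 ± 0.23 in GFP+ cells (adjusted p = 0.0815) and 0.64 ± 0.18 in GFP- cells (adjusted p = 0.0458), neither of which passed. The former passed without P6 GFP+ replicate 2 (-0.88) and without replicate 1 (-0.61), while the P6 difference was 0.51 and 0.84 without them and did not pass. Beside both genes, hair cell markers summed to 684 to 786 CPM in P1 GFP+ and 389 to 451 CPM in P1 GFP- cells, and to 400 to 482 CPM in P6 GFP+ and 334 to 375 CPM in P6 GFP- cells. Most of each sum was *Myo6*, at 442 and 476 CPM in P1 GFP+ and 406 and 348 CPM in P1 GFP- cells. At P6 it was at 250 and 325 CPM in GFP+ and 312 and 340 CPM in GFP- cells. The other 5 markers were higher in both GFP+ libraries at each age, by unlike amounts. At P6, *Otof* was at 114 and 118 CPM in GFP+ against 12.5 and 22.0 CPM in GFP- cells, and *Myo7a* at 17.1 and 23.5 against 9.32 and 12.5 CPM. The part of hair cells in the GFP+ levels of *Igfbp3* and *Igfbp5* was not tested.

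*Igfbp4*, a binding protein that chiefly inhibits IGF and is cut by the protease PAPPA, differed most between groups, by 76.7-fold from the lowest to the highest group mean. Its level was 19.0 and 16.6 CPM in P1 GFP+, 632 and 662 CPM in P1 GFP-, 126 and 272 CPM in P6 GFP+, and 1509 and 1218 CPM in P6 GFP- cells. No groups overlapped, and within each fraction P6 was above P1. The log2 fold change of GFP+ against GFP- cells was -5.07 ± 0.13 at P1 (adjusted p = 9.99e-06), or 33.7-fold lower, and -2.79 ± 0.41 at P6 (adjusted p = 0.00676), or 6.92-fold lower. At P6 the call was at the edge of the threshold, with an adjusted p of 0.01001 when libraries were scaled by their totals, and 0.0227 and 0.0290 without P6 GFP- replicate 1 and replicate 2. Without P6 GFP+ replicate 2 the P6 difference was -3.42 and passed. *Igfbp4* rose with age in each fraction, by 3.56 ± 0.39 on the log2 scale in GFP+ (adjusted p = 0.00646) and 1.27 ± 0.17 in GFP- cells (adjusted p = 0.00402). Without P6 GFP+ replicate 2 the first of these was 2.93 and passed. It did not pass without P1 GFP+ replicate 2 (3.45, adjusted p = 0.0131), nor the second without P6 GFP- replicate 1 (1.08, adjusted p = 0.0181) or with all 8 libraries in the fit (adjusted p = 0.0327).

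*Igfbp2*, a binding protein abundant in fetal tissues, had the same order of groups as *Igfbp4*. It was at 22.2 and 23.98 CPM in P1 GFP+, 469 and 400.3 CPM in P1 GFP-, 42.3 and 134 CPM in P6 GFP+, and 705 and 570.5 CPM in P6 GFP- cells. The groups did not overlap, but the P6 GFP+ replicates differed by 3.18 times. At P1 the log2 fold change was -4.13 ± 0.13 (adjusted p = 1.10e-05), or 17.5-fold lower in GFP+ cells. At P6 it was -2.87 ± 0.54 (adjusted p = 0.0134), just short of the threshold, and -3.90 without P6 GFP+ replicate 2 and -2.22 without replicate 1, both of which passed. The changes with age did not pass, at 2.02 ± 0.52 in GFP+ cells (adjusted p = 0.0505) and 0.75 ± 0.17 in GFP- cells (adjusted p = 0.0251), and without P6 GFP+ replicate 2 the former was 1.00 and passed. Both genes, like *Igf1*, lay on the side of the mesenchyme and fibrocyte markers. That side was shared with other cell types, since all cartilage, macrophage, melanocyte and blood markers examined were lower in both GFP+ libraries at each age. So were 4 of 5 osteoblast markers at P1 and 5 of 5 at P6. The part of any of these cell types in the levels of *Igfbp2* and *Igfbp4* was not tested.

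*Igfbp6*, which prefers IGF2 over IGF1, was low everywhere. Its counts in the P1 GFP+ libraries were 8 and 6. Levels were 0.175 and 0.241 CPM in P1 GFP+, 0.554 and 0.824 CPM in P1 GFP-, 2.25 and 2.75 CPM in P6 GFP+, and 4.78 and 6.09 CPM in P6 GFP- cells. All libraries at P6 were above all libraries at P1. *Igfbp6* rose with age in each fraction, by 3.69 ± 0.39 on the log2 scale in GFP+ (adjusted p = 0.00623) and 3.14 ± 0.31 in GFP- cells (adjusted p = 0.00138). Each of these calls was lost when a library was left out, that in GFP+ cells without either P1 GFP+ replicate (adjusted p = 0.0248 and 0.0484) and that in GFP- cells without either P6 GFP- replicate (adjusted p = 0.0116 and 0.0138). Between fractions it did not pass, with log2 fold changes of -1.67 ± 0.46 at P1 (adjusted p = 0.0239) and -1.12 ± 0.30 at P6 (adjusted p = 0.0346), the latter passing without P6 GFP+ replicate 2 (-1.25, adjusted p = 0.00381).

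*Igfbp7* was at 3.95 and 2.85 CPM in P1 GFP+, 15.4 and 14.7 CPM in P1 GFP-, 23.7 and 61.4 CPM in P6 GFP+, and 32.1 and 35.5 CPM in P6 GFP- cells. The P6 GFP+ replicates lay on either side of the P6 GFP- libraries. At P1 its log2 fold change was -2.02 ± 0.22 (adjusted p = 0.000629), so it was lower in GFP+ cells. At P6 the log2 fold change was 0.32 ± 0.41 (adjusted p = 0.584), and its sign depended on 1 library, being -0.49 without P6 GFP+ replicate 2 (adjusted p = 0.0192) and 0.89 without replicate 1 (adjusted p = 0.000121). In GFP- cells *Igfbp7* rose with age, at 1.36 ± 0.13 (adjusted p = 0.00113), a call lost without either P6 GFP- replicate (adjusted p = 0.0120 and 0.0136) and with all 8 libraries in the fit (adjusted p = 0.0430). In GFP+ cells the log2 fold change with age was 3.71 ± 0.50 (adjusted p = 0.0110), just short of the threshold, and 2.89 without P6 GFP+ replicate 2, which passed. The 5 endothelial markers summed to 55.6 CPM in P6 GFP+ replicate 1 and 201 CPM in replicate 2, against 116 to 126 CPM in P6 GFP- cells. Glial markers summed to 1118 and 2123 CPM in the same GFP+ libraries, against 1129 to 1346 CPM in P6 GFP- cells. For both lists, as for *Igfbp7*, the P6 GFP+ libraries lay on either side of the P6 GFP- libraries. The part of either cell type in the level of *Igfbp7* was not tested.

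**Figure D2:**
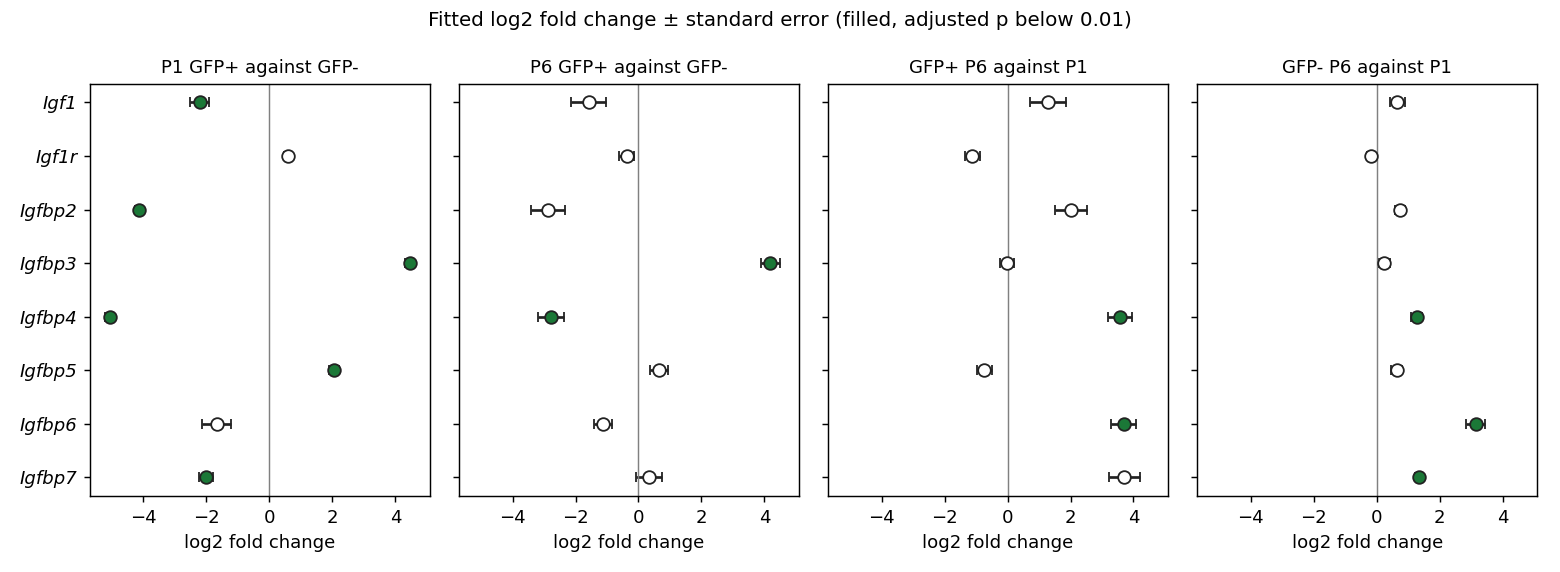
Fitted log2 fold change of the 8 genes (horizontal axis) in the 4 comparisons of groups, with bars for the standard error and filled circles for an adjusted p below 0.01 in edgeR's quasi-likelihood test. At P1, 6 genes passed, against 2 at P6. The standard errors were wider in the comparisons that include P6 GFP+ cells, except for *Igfbp6*, whose widest was between the fractions at P1.

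With age, the calls among the members with edgeR on all libraries of a comparison were increases. In GFP+ cells 2 of the 8 passed, *Igfbp4* and *Igfbp6*, both by more than 4-fold, against 4.81% of the 17213 genes tested (2.86% higher and 1.95% lower at P6). With the fold criterion the share of all genes was 2.56%, with 1.63% higher and 0.93% lower. Decreases were called under other settings, with 4 members higher and 2 lower by DESeq2, 4 and 2 without P6 GFP+ replicate 2 and 5 and 2 without replicate 1, while 0 were called without P1 GFP+ replicate 2. The 2 lower were *Igf1r* and *Igfbp5*. In GFP- cells 3 of the 8 passed, *Igfbp4*, *Igfbp6* and *Igfbp7*, against 7.38% of 18920 genes (5.04% higher and 2.34% lower). With the fold criterion *Igfbp6* alone remained, against 1.85% of all genes (1.43% higher and 0.418% lower). The split of calls over all genes in GFP- cells depended on the scaling, since 68.3% of them were increases with TMM and 49.5% with library totals, which moved the median log2 fold change of all genes from -0.02 to -0.21. The 3 members called in GFP- cells were increases with either scaling. The median log2 fold change of the 8 members was 1.66 in GFP+ and 0.70 in GFP- cells, and both comparisons share their libraries with the comparisons of GFP+ with GFP- cells above.

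Whether the log2 ratio between the fractions changed with age was tested as an interaction over all 8 libraries. No member passed an adjusted p of 0.01 in edgeR's quasi-likelihood test, against 1.93% of the 19233 genes tested (0.946% with a larger and 0.988% with a smaller ratio at P6). An unadjusted p under 0.05 was reached by 4 members, and DESeq2 called 3. The largest estimates were for *Igfbp7* (P6 minus P1, 2.32 ± 0.53, adjusted p = 0.0416), *Igfbp4* (2.27 ± 0.45, adjusted p = 0.0250) and *Igfbp5* (-1.41 ± 0.28, adjusted p = 0.0267). That is, the deficit of *Igfbp4* and the excess of *Igfbp5* in GFP+ cells were both estimated as smaller at P6. The estimate for *Igfbp3* was -0.29 ± 0.32 (adjusted p = 0.663). For the others it was -0.97 ± 0.29 for *Igf1r* (adjusted p = 0.0979), 1.24 ± 0.60 for *Igfbp2* (adjusted p = 0.284), 0.61 ± 0.71 for *Igf1* (adjusted p = 0.679) and 0.55 ± 0.49 for *Igfbp6* (adjusted p = 0.583). Without P6 GFP+ replicate 2 the estimates for *Igf1r*, *Igfbp4*, *Igfbp5* and *Igfbp7* passed (-1.33, 1.64, -1.56 and 1.51), those for *Igfbp2* and *Igfbp3* were 0.22 and -0.08, and that for *Igf1* changed sign to -0.54. Leaving out P6 GFP+ replicate 1 instead, those for *Igfbp2*, *Igfbp4*, *Igfbp5* and *Igfbp7* passed (1.82, 2.69, -1.29 and 2.82).

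To compare binding proteins with each other, counts were set per kb of merged exon length. The 6 genes together amounted to 2199 CPM per kb in P1 GFP+, 955 CPM per kb in P1 GFP-, 1622 CPM per kb in P6 GFP+ and 1538 CPM per kb in P6 GFP- cells, as means of 2 libraries. *Igfbp5* and *Igfbp3* made up nearly all of it in P1 GFP+ cells, with 70.3% (69.2% and 71.4%) and 28.7% (27.6% and 29.8%). *Igfbp2* and *Igfbp4* made up only 0.569% and 0.342% there. In P1 GFP- cells, *Igfbp5* made up 42.1%, *Igfbp4* 28.7%, *Igfbp2* 24.6% and *Igfbp3* 3.21%. At P6, GFP+ cells still had mostly *Igfbp5* (50.3% and 56.5%) and *Igfbp3* (43.3% and 29.4%), with *Igfbp4* at 3.47% and 6.74%. In P6 GFP- cells *Igfbp4* (38.6% and 36.3%) and *Igfbp5* (34.3% and 37.6%) were near each other and their ranges overlapped. *Igfbp6* and *Igfbp7* stayed at or under 2.96% in every library. These shares are of transcript counts in this annotation and were not tested.

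**Figure D3:**
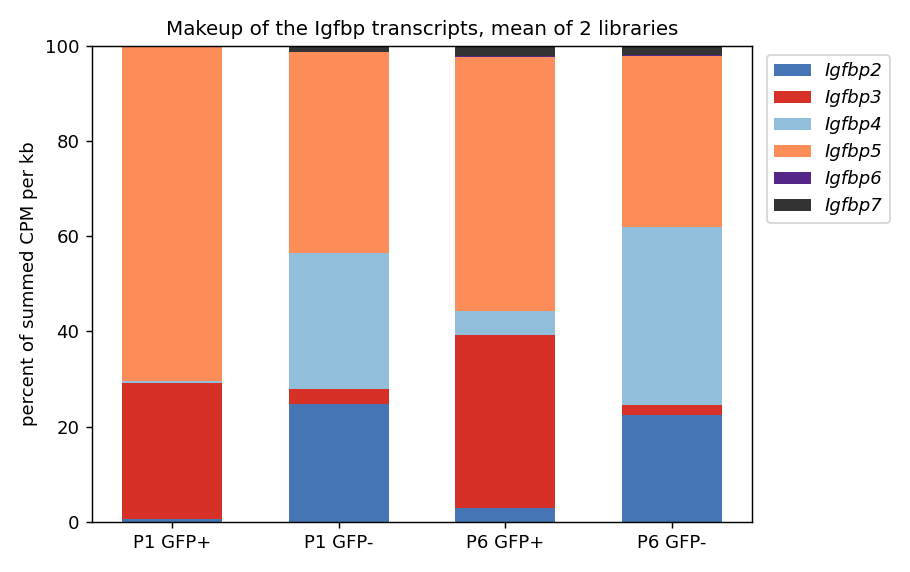
Makeup of the transcripts of the 6 *Igfbp* genes in each group, as the percent of their summed CPM per kb of exon, mean of 2 libraries, stacked from 0 to 100 percent. *Igfbp3* and *Igfbp5* together fill nearly the whole bar in P1 GFP+ cells, whereas *Igfbp2* and *Igfbp4* fill 24.6% and 28.7% of it in P1 GFP- cells.

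The other genes of the pathway were taken from lists of 52 genes in all. At P1, 47 of them could be tested, of which 4 were higher and 17 lower in GFP+ cells (44.7%), and at P6 3 were higher and 4 lower of 46 (15.2%). These shares stand against the 37.3% and 12.9% of all genes given above. The median log2 fold change over the lists was -0.21 at P1 and -0.17 at P6. Of the 21 calls at P1, 7 were lost when a P1 GFP+ library was left out (*Akt2*, *Foxo3*, *Gab1*, *Grb14*, *Insr*, *Stat5a* and *Stc1*), and each of the 7 calls at P6 was lost when a P6 GFP- library was left out.

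Among the other ligands and receptors, *Igf2*, the fetal growth factor that also binds IGF1R, was lower in GFP+ cells at both ages. It was at 42.4 and 37.4 CPM in P1 GFP+, 827 and 1005 CPM in P1 GFP-, 72.2 and 224 CPM in P6 GFP+, and 1820 and 1665 CPM in P6 GFP- cells. Its log2 fold change was -4.41 ± 0.16 at P1 (adjusted p = 1.5e-05) and -3.57 ± 0.56 at P6 (adjusted p = 0.00786), and it rose with age in GFP- cells by 1.12 ± 0.17 (adjusted p = 0.00626). Both the P6 call and the call with age were lost with library totals, and the P6 difference was -4.57 without P6 GFP+ replicate 2. Per kb, *Igf2* stood at 317 CPM per kb in P6 GFP- cells against 25.03 CPM per kb for *Igf1*. The scavenging receptor *Igf2r*, which carries IGF2 to lysosomes, did not pass in any comparison, with 178 CPM in P1 GFP+ and 197 CPM in P1 GFP- cells on average. The insulin receptor gene *Insr* was higher in P1 GFP+ cells (0.50 ± 0.09, adjusted p = 0.00420) and had a log2 fold change of 0.06 ± 0.24 at P6 (adjusted p = 0.862). *Insrr*, a relative of the insulin receptor, had 1 count in all in the P1 GFP+ libraries against 73 and 157 counts in P1 GFP- cells and was called lower at P1, and it fell with age in GFP- cells (-3.10 ± 0.37, adjusted p = 0.00241). *Ins1* had no counts in any library, and *Ins2* had 1.

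Of the remaining binding proteins and the factors that act on them, *Igfbpl1*, which encodes a protein related to IGFBP7, was the only one higher in GFP+ cells. Its level was 58.4 and 57.7 CPM in P1 GFP+, 1.24 and 5.28 CPM in P1 GFP-, 58.8 and 35.9 CPM in P6 GFP+, and 0.324 and 0.148 CPM in P6 GFP- cells. The log2 fold change was 4.20 ± 0.56 at P1 (adjusted p = 0.00147) and 7.64 ± 0.49 at P6 (adjusted p = 0.000881). Proteases that cut IGFBPs were lower in GFP+ cells at P1, namely *Pappa* (-4.54 ± 0.39), *Pappa2* (-3.64 ± 0.37) and *Htra1* (-5.38 ± 0.22), and so was *Stc1* (-1.48 ± 0.26), a relative of the PAPPA inhibitor stanniocalcin-2. *Htra1* was at 1.22 and 2.05 CPM in P1 GFP+, 73.4 and 67.1 CPM in P1 GFP-, 20.5 and 54.4 CPM in P6 GFP+, and 275 and 258 CPM in P6 GFP- cells. It was also lower at P6 (-2.84 ± 0.45, adjusted p = 0.00829) and rose with age in GFP+ (4.64 ± 0.57, adjusted p = 0.00855) and GFP- cells (2.12 ± 0.12, adjusted p = 0.000204), in the same order of groups as *Igfbp4*. With library totals *Htra1* passed neither at P6 nor with age in GFP+ cells, and without P6 GFP+ replicate 2 these values were -3.68 and 3.84. *Igfals*, the acid-labile subunit of the blood complex of IGF, rose with age in GFP- cells (3.52 ± 0.32, adjusted p = 0.000968) to 11.1 and 9.72 CPM.

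In the growth hormone list, the receptor gene *Ghr* was lower in GFP+ cells at P1 (-2.80 ± 0.19) and P6 (-1.87 ± 0.27), while *Socs2*, an inhibitor of growth hormone signalling, was higher. *Socs2* was at 627 and 633 CPM in P1 GFP+, 101 and 94.4 CPM in P1 GFP-, 717 and 557 CPM in P6 GFP+, and 188 and 175 CPM in P6 GFP- cells. Its log2 fold change was 2.79 ± 0.10 at P1 (adjusted p = 1.5e-05) and 1.81 ± 0.22 at P6 (adjusted p = 0.00434), and it rose with age in GFP- cells (1.08 ± 0.11). *Stat5a*, a transcription factor downstream of the growth hormone receptor, was lower in GFP+ cells at P1, with 5.35 and 5.58 against 13.7 and 11.1 CPM. At P6 it was at 53.2 and 50.9 CPM in GFP+ and 31.8 and 34.5 CPM in GFP- cells. *Stat5a* rose with age in each fraction, by 3.34 ± 0.15 in GFP+ (adjusted p = 0.00181) and 1.61 ± 0.15 in GFP- cells (adjusted p = 0.00119), and its interaction passed (1.71 ± 0.21, adjusted p = 0.00396). That interaction was lost without either P1 GFP+ or either P6 GFP- library.

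Among receptor substrates and adaptors, 5 of 8 genes were lower in GFP+ cells at P1 and 0 higher, against 20.7% lower and 16.6% higher of all genes. *Shc1*, which links receptors to the MAPK pathway, was lower at P1 (-1.73 ± 0.09) and P6 (-1.72 ± 0.25), the latter just lost with library totals (adjusted p = 0.01004). *Irs1*, a main substrate of IGF1R, was lower at P1 (-1.15 ± 0.10). *Grb10*, an adaptor that inhibits IGF1R and the insulin receptor, was lower at P1 (-1.09 ± 0.10), and its relative *Grb14* rose with age in GFP+ cells by 1.88 ± 0.14 (adjusted p = 0.00297). *Grb14* was at 42.8 and 37.4 CPM in P1 GFP+, 84.7 and 68.1 CPM in P1 GFP-, 143 and 135 CPM in P6 GFP+, and 82.1 and 98.2 CPM in P6 GFP- cells, and its interaction passed (1.43 ± 0.22, adjusted p = 0.00925), though not when any 1 of the P1 or the P6 GFP- libraries was left out. *Stat5a* and *Grb14* were the 2 interactions called among the 47 pathway genes tested (4.26%, against 1.93% of all genes).

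Of the 22 genes of the intracellular relay, 1 was higher and 4 were lower in GFP+ cells at P1 (22.7%), and 1 was higher at P6 (4.55%). Both shares were below those of all genes, 37.3% at P1 and 12.9% at P6. *Pik3cb*, a catalytic subunit of PI3K, was higher at P6 (1.16 ± 0.19, adjusted p = 0.00860), which was lost with library totals (adjusted p = 0.0106). *Pik3r1*, a regulatory subunit of PI3K, was lower at P1 (-1.74 ± 0.12), as was *Foxo1*, a transcription factor that AKT restrains (-2.08 ± 0.14). *Foxo1* rose with age in GFP- cells (1.395 ± 0.12) and *Foxo3* in GFP+ cells (1.10 ± 0.14, adjusted p = 0.00931). With age, 5 of 46 pathway genes tested rose and 0 fell in GFP+ cells (10.9%, against 4.81% of all genes), and 6 of 48 rose and 2 fell in GFP- cells (16.7%, against 7.38%). The absence of decreases in GFP+ cells did not hold without P6 GFP+ replicate 2, with 12 higher and 12 lower, or without replicate 1, with 15 higher and 3 lower. Leaving out a P1 GFP+ library lost 4 of the 5 calls in GFP+ cells, all but that of *Stat5a*, and leaving out a P6 GFP- library lost 6 of the 8 in GFP- cells, all but those of *Htra1* and *Foxo1*.

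**Figure D4:**
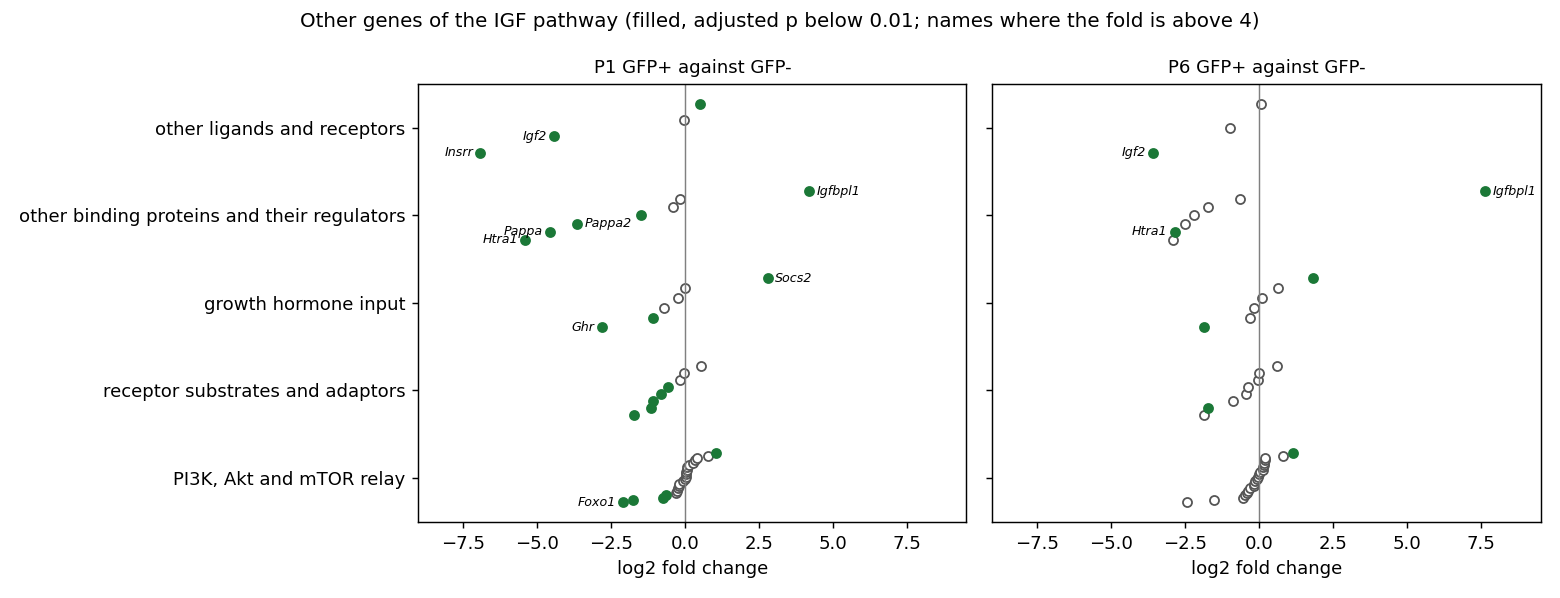
Log2 fold change of GFP+ against GFP- cells (horizontal axis) for the pathway genes tested, in 5 lists from top to bottom, at P1 on the left and P6 on the right; filled circles have an adjusted p below 0.01, and genes called with a change above 4-fold are named. *Igf2* lies far to the left and *Igfbpl1* far to the right at each age, whereas most of the relay genes were not called at either age.

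For each member, the 2 genes whose levels followed it most closely were found among 15274 genes, by the root-mean-square difference of centred log2(CPM + 1) values over the 8 libraries, which fall into 4 groups and so give few independent points. The nearest to *Igfbp3* were 4930562F07Rik (difference 0.18, Pearson r = 0.998) and *Mctp1* (0.21, r = 0.997), and the nearest to *Igfbp5* were *Pcp4l1* (0.07, r = 0.995) and *Fgf2* (0.13, r = 0.998). *Igfbp2* was nearest to *Nbl1* (0.12, r = 0.999) and *Tgfbr2* (0.12, r = 0.998), and *Igfbp4* to *Apcdd1* (0.21, r = 0.996) and *Wdr86* (0.31, r = 0.992). *Igf1* was nearest to *Fads3* (0.22, r = 0.984) and *Sulf1* (0.22, r = 0.989), and *Igf1r* to *Herc1* (0.12, r = 0.970) and *Prrc2b* (0.13, r = 0.963). For *Igfbp6* they were 2610019F03Rik (0.22, r = 0.973) and *Npas2* (0.23, r = 0.983), and for *Igfbp7* *Mbp*, a glial marker and myelin protein gene (0.23, r = 0.985), and *Ptgds* (0.25, r = 0.983). *Mbp* was at 195 CPM in P6 GFP+ replicate 1 and 439 CPM in replicate 2.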

How the data were processed

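RNA-seq of sorted cochlear cells was used as raw counts per Ensembl gene, deposited by the authors for 8 libraries after TopHat 1.4.0 alignment to mm9 and counting with HTSeq, per the submitters' processing notes, without normalization. The counting mode and strand setting are not given in the sources used here. Between 23.8% and 35.3% of the reads in a library were listed under 5 rows that name no gene and were left out. Libraries held 17769024 to 67695039 gene counts, so genes with few counts are known imprecisely, and p-values cover only the spread between libraries. The members and gene lists were chosen with earlier results of these data known.

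Groups followed the labels. Each comparison was fitted on its 4 libraries over the whole gene table with edgeR 4.0.16 in R 4.3.3 (filterByExpr with minimum count 10 and minimum total 15, TMM, quasi-likelihood test, Benjamini-Hochberg adjustment), and the interaction of age and fraction on all 8. A gene was called at an adjusted p below 0.01, and by a second rule also with a fold change above 4. The standard error is the log2 fold change divided by the square root of F. CPM used the library's gene total, without TMM, and CPM per kb used merged exon lengths in NCBIM37, whose annotation held 34391 of 36536 genes. Pathway genes are named when called with a fold above 2 in any comparison, beside all other ligands and receptors, except 1 gene that is not reported here. The procedure was tested on simulated data. Replicates of each group differed by more than sampling noise (chi-square per degree of freedom 16.3 to 62.7). Alternatives were library totals or DESeq2 size factors, DESeq2 1.42.0, no filter, all 8 libraries in each fit, a replicate block and leaving out each library; a crossed block was added after seeing the data. Promoter windows came from RefSeq tables, and figures were drawn with matplotlib 3.10.9.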

Additional observations from a re-analysis of the deposited data

How the results depend on the processing

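Directions of the members in all 5 comparisons held under library totals, DESeq2 size factors, DESeq2, all 8 libraries in the fit and no filter on low counts. The number of members called at P1, 6, stayed between 5 and 8 under every alternative. At P6, 2 became 1 with library totals and 4 without the filter, and 0 to 6 when a library was left out. With age in GFP+ cells, 2 became 6 with DESeq2, 6 without the filter and 4 with all 8 libraries, and 0 to 7 with a library left out. In GFP- cells, 3 became 5 with DESeq2, 6 without the filter and 1 with all 8 libraries, and 0 to 4 with a library left out. For the interaction, 0 became 3 with DESeq2 and 5 without the filter, and 0 to 4 with a library left out. A library left alone in its group was assumed to vary like the others. Signs turned for *Igfbp7* at P6 without P6 GFP+ replicate 2 (-0.49, range over libraries left out -0.49 to 0.89), for *Igf1* in the interaction without the same library (-0.54, range to 1.23), and for *Igfbp3* with age in GFP+ cells without P1 GFP+ replicate 2 (0.02) or P6 GFP+ replicate 2 (0.20, range from -0.26), none of which passed. The cause of these shifts was not tested.

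Over all genes, 2363 calls at P6 became 4891 with DESeq2, 5309 without the filter and 5157 with all 8 libraries. The 828 calls with age in GFP+ cells became 3037, 4090 and 2361, the 1397 in GFP- cells 3050, 3993 and 769, and the 372 interactions 1439 and 2400 with the first and the second of these. Leaving out a library gave 3675 to 9798 calls at P1, 0 to 7767 at P6, 137 to 7531 with age in GFP+ cells, 249 to 3029 in GFP- cells and 28 to 1407 interactions, so each background share depends on single libraries. For the pathway genes, the same alternatives turned 7 calls at P6 into 16, 17 and 16 (3 with library totals), 5 with age in GFP+ cells into 9, 11 and 8 (2 with library totals), 8 in GFP- cells into 14, 15 and 5, and 2 interactions into 4 and 10. With library totals, 71.4% of the P6 calls were higher in GFP+ cells (59.8% with TMM), as were 60.2% of the interactions (48.9%).

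Whether libraries with the same replicate number were paired is not given in the sources used here. Deviations of same-numbered libraries correlated at 0.04 and 0.06 between fractions and at -0.17 and -0.34 between ages. With only 2 libraries per group, these values cannot decide whether the fractions of an age came from the same animals. With a replicate block, members called were 7 at P1, 3 at P6, 3 with age in GFP+ and 3 in GFP- cells, and 0 for the interaction (151 over all genes, 0 in the pathway). A crossed block, chosen after seeing the data, gave 3 and 5 members with age in GFP+ and GFP- cells (1254 and 3063 over all genes), and 13 pathway genes in GFP- cells. Only 2 libraries per group limit every call, and *Igfbp6* at P1 rests on 6 to 52 counts per library.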
